A study of Homo sapiens with 12 samples.

Results

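The nucleoporins are the proteins that build the nuclear pore complex, and GLE1 is an mRNA export factor that works at its cytoplasmic side. GLE1 and 30 nucleoporin genes were followed here in the cytoplasmic RNA of U2OS cells, a human osteosarcoma line, after siRNA against DBP5, GLE1 or IPPK. The members were chosen by name from the known parts of the pore, and every array probe whose transcript accession belongs to a listed gene in RefSeq was taken. All 31 listed genes had a probe, 44 probes in all of 34127 gene probes, or 31 of 27522 gene names. For 18 members the array held 1 probe, and for 13 it held 2. Where there were 2, the brighter probe stands for the gene, and the dimmer probe is described separately.

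The nuclear pore complex is a ring-shaped channel through the nuclear envelope. Its scaffold is made of the Y complex and the inner ring, transmembrane nucleoporins hold it in the membrane, and nucleoporins with phenylalanine-glycine repeats fill the channel and form its selective barrier. An mRNA leaves past the nuclear basket and arrives at the cytoplasmic face, where the RNA helicase DBP5, bound to NUP214 and activated by GLE1 with inositol hexakisphosphate, removes export proteins from it. IPPK is the kinase that makes inositol hexakisphosphate.

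Each of the 4 siRNA groups had 3 arrays, 12 in all, of cytoplasmic RNA labelled in a single colour. The groups were control siRNA, DBP5 siRNA, GLE1 siRNA and IPPK siRNA, each transfected at 20 nM into U2OS cells, and cells were cultured for 48 h before the cytoplasm was separated with a detergent buffer. The cells are of a single line, and the protein left after each siRNA is not measured by these arrays. Replicate numbers marked the slide, so each of the 3 slides held 1 array of every group. The methods describe independent experiments without saying more about the cultures, so p-values measure the spread between these arrays. In RNA pooled from a culture, less RNA per cell and fewer cells that hold the RNA cannot be told apart.

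On the 12 arrays, 70.9% to 77.7% of gene probes were well above background and no gene spot was saturated. The brighter probe of all 31 members was well above background on all 12 arrays. Both genes that encode DBP5 were low after DBP5 siRNA, DDX19B at 6.34% to 6.57% and DDX19A at 5.09% to 5.60% of the control mean. In IPPK siRNA cells DDX19A was at 29.8% to 30.6% and DDX19B at 85.6% to 90.6%. IPPK was at 18.1% to 19.6% after IPPK siRNA, and at 40.8% to 43.6% after DBP5 siRNA. After GLE1 siRNA DDX19B was at 46.7% to 51.5%, DDX19A at 53.2% to 55.1% and IPPK at 79.4% to 87.5%. All 3 of these genes passed the test as lower after each of the siRNAs. All 6 osteoblast lineage markers were well above background on all 3 control arrays, and 5 of them, without COL1A2, on all 3 arrays of each knock-down. Of the 6, 2 fell and 1 rose after DBP5 siRNA, 1 fell after GLE1 siRNA and 3 fell after IPPK siRNA, where COL1A1 was at 25.2% and RUNX2 at 61.5% of control and the third was COL1A2. Their summed intensity, 223113 to 347562, was carried by VIM. The summed intensity of 6 markers of other cell types was 892 to 1073 in control cells, and 647 to 755, 780 to 941 and 532 to 742 after DBP5, GLE1 and IPPK siRNA, and was carried by EPCAM. CDH1 and PECAM1 were not well above background on all 3 control arrays. CDH1 went the other way from the sum, with a mean normalized log2 intensity of 3.48 in control cells, 4.42 after DBP5 siRNA, 6.78 after GLE1 siRNA and 4.78 after IPPK siRNA. It passed the test as higher in all 3 knock-downs, although after IPPK siRNA, as in control cells, it was not well above background on all 3 arrays. Of 3 nuclear-retained RNAs, 1 rose after DBP5 siRNA, 2 rose after GLE1 siRNA, and 1 rose and 1 fell after IPPK siRNA. Their summed intensity was 7145 to 7262 in control cells, and 9213 to 10538, 11684 to 11788 and 7782 to 8245 after DBP5, GLE1 and IPPK siRNA. That sum was carried by KCNQ1OT1, which was at 156%, 179.5% and 116% of control in the same order, where MALAT1 was at 69.2%, 79.8% and 47.4% and passed the test, as lower, after IPPK siRNA. The part of these markers and RNAs in the results below was not tested.

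The sequences of the GLE1 siRNAs are shown because GLE1 is both a member and the target. The study lists a pair of GLE1 duplexes without saying which was used for the arrays. Each antisense strand is printed with bases 2 to 8 in capitals, which are the seed only if the guide strand keeps its printed first base. The antisense strand of GLE1 #2 has 27 bases, and whether it is trimmed in the cell was not tested.
GLE1 #1 sense: gagaagccuugggacaccaagagaa
GLE1 #1 antisense: uUCUCUUGgugucccaaggcuucuc
GLE1 #2 sense: ccgucacagagcaaagauucucaac
GLE1 #2 antisense: gUUGAGAAucuuugcucugugacggug

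GLE1 mRNA itself was strongly reduced by its own siRNA. Levels are given as a percentage of the mean of the 3 control arrays, taken on the log2 scale, and a ratio is the knock-down mean over the control mean with the SD of the 3 knock-down arrays. GLE1 stood at 13.5%, 9.22% and 8.42% after GLE1 siRNA, against 98.0% to 102% on the control arrays. The fall was 3.30 on the log2 scale (GLE1 siRNA minus control -3.30, SE 0.15, limma adjusted p = 2.1e-08), a ratio of 0.102 ± 0.0274 (SD, n = 3). The mean normalized log2 intensity was 4.99 after GLE1 siRNA against 8.29 in control cells. At so weak a signal the depth of the fall depends on the background subtraction. The study reported a smaller reduction of GLE1 and of IPPK from these arrays, with its own processing. GLE1 mRNA was also lower after IPPK siRNA, at 66.5%, 75.2% and 73.8%, a ratio of 0.717 ± 0.0464 (SD, n = 3, limma adjusted p = 0.0199). This call was lost without control array 2 (limma adjusted p = 0.0539) or without IPPK array 1 (limma adjusted p = 0.0646). After DBP5 siRNA the level was 70.1%, 81.9% and 83.6%, also below every control array, but the difference did not pass the test (limma adjusted p = 0.0726). It passed when only the 6 arrays compared were fitted, with normexp background correction, with quantile normalization and by the authors' values (limma adjusted p = 0.0131, 0.0132, 0.0244 and 0.0248). GLE1 mRNA was lowest under its own siRNA, and on the arrays of the other knock-downs it lay between that level and the control level. The direct comparisons gave a log2 difference of -2.95 for GLE1 siRNA against DBP5 siRNA (limma adjusted p = 9.0e-08) and -2.82 against IPPK siRNA (limma adjusted p = 8.4e-08).

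**Figure D1:**
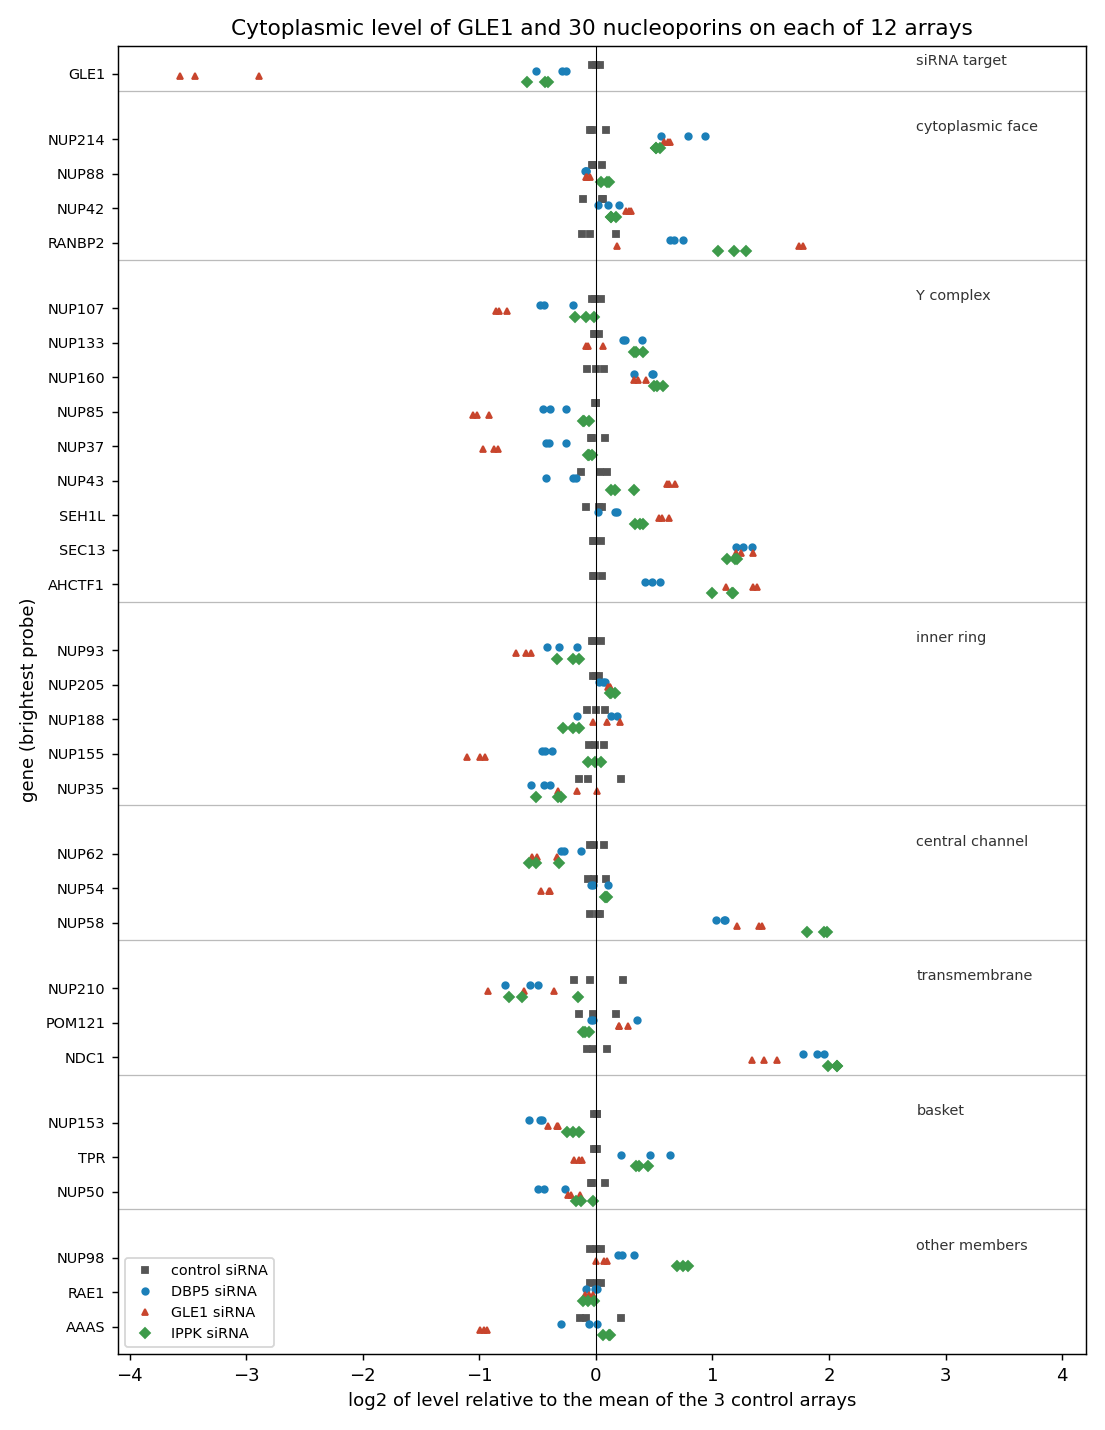
Level of GLE1 and 30 nucleoporins on each array, as log2 of the level relative to the mean of the 3 control arrays (horizontal axis), with a symbol per array for control, DBP5, GLE1 and IPPK siRNA and genes grouped by place in the pore. GLE1 is far left after its own siRNA, NDC1, NUP58 and SEC13 are right of 0 after every knock-down, and NUP107, NUP85, NUP37, NUP155 and AAAS are left of 0 after GLE1 siRNA.

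Whether pore genes change when these export factors are depleted was asked against control siRNA, and members moved in both directions in each knock-down. After DBP5 siRNA 11 of 31 members fell and 9 rose, or 35.5% and 29.0%, where 27.5% and 26.7% of all 20821 genes tested fell and rose. After GLE1 siRNA 12 fell and 11 rose, or 38.7% and 35.5%, against 31.5% and 30.6% of all genes. The 12 include GLE1, the target of that siRNA. After IPPK siRNA 6 fell and 12 rose, or 19.4% and 38.7%, against 28.0% and 27.3% of all genes. The 6 became 3 without control array 2 or without IPPK array 1. These 3 comparisons share the control arrays. The median log2 difference of the members was 0.01 after DBP5 siRNA, -0.06 after GLE1 siRNA and 0.09 after IPPK siRNA, against -0.02, 0.01 and -0.03 for all genes. After DBP5 and GLE1 siRNA the shares were not far from those of all genes. After IPPK siRNA more members rose and fewer fell than the shares of all genes would give for 31, and no test of the list was made.

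Larger changes were fewer. Changes of at least 1.5-fold that also passed the test were found for 1 member downward and 4 upward after DBP5 siRNA, where 12.1% of all genes lay in the first class and 12.6% in the other. The member that fell was NUP210, which had a weak signal. After GLE1 siRNA 8 members were lower and 7 higher by this measure, or 25.8% and 22.6%, against 17.7% and 16.0% of all genes. The 8 include GLE1, the siRNA target. After IPPK siRNA no member was lower and 6 were higher, against 12.6% and 13.2% of all genes. Without GLE1 itself, the ratios to control ran from 0.654 to 3.67 after DBP5 siRNA, from 0.495 to 2.72 after GLE1 siRNA and from 0.702 to 4.11 after IPPK siRNA.

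The promoters of members on either side of this spread are shown next, from RefSeq on GRCh38.p14. Each is the 250 bases before an annotated transcription start of the gene. Where a gene had several starts, the window with the lowest coordinate was taken. On the minus strand that is the start furthest downstream. Whether a window overlaps an exon read from another start, as an ATG near the end of the SEC13 window allows, was not tested. NDC1, NUP58 and SEC13 rose after every knock-down. Capitals mark CCGGAAGT or its reverse complement ACTTCCGG, an ETS site, which NDC1 lacks in this window.
NDC1, chr1:53838297-53838546, minus strand: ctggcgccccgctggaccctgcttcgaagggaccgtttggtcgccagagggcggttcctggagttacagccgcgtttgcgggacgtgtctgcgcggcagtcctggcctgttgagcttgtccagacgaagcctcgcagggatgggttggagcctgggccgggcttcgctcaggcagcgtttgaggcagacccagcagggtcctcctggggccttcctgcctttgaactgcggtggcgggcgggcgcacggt
NUP58, chr13:25301375-25301624, plus strand: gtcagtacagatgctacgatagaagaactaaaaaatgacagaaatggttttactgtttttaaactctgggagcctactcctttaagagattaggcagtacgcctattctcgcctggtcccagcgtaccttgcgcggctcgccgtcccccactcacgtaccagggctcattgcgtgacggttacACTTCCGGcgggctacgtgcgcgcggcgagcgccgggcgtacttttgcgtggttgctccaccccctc
SEC13, chr3:10321042-10321291, minus strand: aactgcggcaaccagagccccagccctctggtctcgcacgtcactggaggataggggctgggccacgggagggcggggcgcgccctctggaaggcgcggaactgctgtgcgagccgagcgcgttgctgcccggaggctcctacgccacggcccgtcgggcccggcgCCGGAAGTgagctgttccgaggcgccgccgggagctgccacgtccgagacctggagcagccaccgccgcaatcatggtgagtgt
NUP107, NUP85 and NUP155 fell after GLE1 and DBP5 siRNA and did not pass the test after IPPK siRNA. Capitals mark CGCATGCG, the palindromic core of an NRF1 site, which of these genes NUP107 holds.
NUP107, chr12:68686728-68686977, plus strand: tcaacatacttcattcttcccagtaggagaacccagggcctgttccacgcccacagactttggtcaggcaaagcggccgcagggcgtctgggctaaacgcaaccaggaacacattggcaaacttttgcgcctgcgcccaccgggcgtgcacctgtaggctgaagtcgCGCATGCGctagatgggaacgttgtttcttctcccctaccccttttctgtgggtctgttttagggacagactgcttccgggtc
NUP85, chr17:75205429-75205678, plus strand: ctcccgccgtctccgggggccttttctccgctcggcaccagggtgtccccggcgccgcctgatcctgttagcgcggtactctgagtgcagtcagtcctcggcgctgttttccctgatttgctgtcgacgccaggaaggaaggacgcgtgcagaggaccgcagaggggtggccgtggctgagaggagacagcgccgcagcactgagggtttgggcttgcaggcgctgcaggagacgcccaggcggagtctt
NUP155, chr5:37371107-37371356, minus strand: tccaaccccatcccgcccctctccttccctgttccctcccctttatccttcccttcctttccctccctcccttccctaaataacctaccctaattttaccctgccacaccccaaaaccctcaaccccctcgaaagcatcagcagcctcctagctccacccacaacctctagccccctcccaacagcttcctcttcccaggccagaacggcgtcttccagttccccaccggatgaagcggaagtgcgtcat

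The promoter table held 28 of the members, without GLE1, NUP43 and AHCTF1. A set of 4 motifs was searched on both strands of the 250 bases. After GLE1 siRNA 11 of these 28 members fell and 9 rose, where 31.5% and 30.6% of all genes tested did. The ETS site lay in 6 of the 28, those of NUP160, NUP35, NUP54, NUP58, POM121 and SEC13, or 21.4%, against 3.6% of all 27305 promoters. Of these 6 genes, after GLE1 siRNA NUP160, NUP58 and SEC13 rose, NUP54 fell, and NUP35 and POM121 did not pass the test. The NRF1 core lay in 3, those of NUP107, NUP50 and NUP62, and in 1.8% of all promoters. These 3 genes fell after GLE1 siRNA, NUP50 not without control array 2 or GLE1 array 2 or 3 and not by its dimmer probe (0.02 on the log2 scale). The CRE palindrome TGACGTCA lay in 3, those of NUP133, NUP214 and NUP42, and in 1.7% of all promoters, and of these NUP214 and NUP42 rose after GLE1 siRNA and NUP133 did not pass the test. The E2F core GCGGGAA lay in those of NUP160, which rose, and NUP210, which fell, 7.1% against 5.5%. Median GC content was 62.8% for the members and 57.6% for all promoters. These matches are a description of the letters in this window and say nothing about binding.

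The cytoplasmic face holds the proteins that GLE1 and DBP5 work with. Of its 4 genes, 1 rose after DBP5 siRNA, 3 after GLE1 siRNA and 2 after IPPK siRNA, where 26.7%, 30.6% and 27.3% of all genes rose, and none of the 4 fell. Their median log2 difference was 0.40, 0.45 and 0.34. NUP214, which docks DBP5 to the pore, rose in each knock-down. Its level was 147%, 173% and 192% after DBP5 siRNA, 155%, 154% and 150.2% after GLE1 siRNA and 143%, 143% and 147% after IPPK siRNA, against 96.3% to 106% on the control arrays. No knock-down array overlapped the control arrays. The ratios were 1.70 ± 0.223, 1.53 ± 0.0254 and 1.44 ± 0.0216 (SD, n = 3 each, limma adjusted p = 2.4e-05, 8.8e-05 and 3.3e-04). NUP88, the partner of NUP214 on the cytoplasmic side, stayed within 93.5% and 108% on all 9 knock-down arrays and passed the test in no knock-down (ratios 0.940, 0.952 and 1.06). Its values after DBP5 siRNA, 94.1%, 94.5% and 93.5%, passed as lower when arrays were scaled to their 75th percentile or quantile normalized, or by the authors' values (limma adjusted p = 0.0478, 0.0467 and 0.0280), and those after GLE1 siRNA with the 75th percentile (limma adjusted p = 0.0436).

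NUP42, a direct partner of GLE1 at the pore, was measured at 119.5%, 124% and 122% after GLE1 siRNA, above control arrays at 92.8% to 104%. It rose there by a ratio of 1.22 ± 0.0203 (SD, n = 3, limma adjusted p = 0.00194). After DBP5 siRNA its level was 115%, 101% and 107.4%, which overlapped the control arrays, and after IPPK siRNA 113%, 109% and 109%. Neither passed the test. RANBP2, the filament protein that binds Ran and acts as a SUMO ligase, stood at 113.4%, 335% and 343% after GLE1 siRNA. GLE1 array 1 lay just above the control arrays, which were at 96.4%, 112.5% and 92.2%, and the other GLE1 arrays were far above them. The log2 difference was 1.23 (SE 0.34, limma adjusted p = 0.00917), and without GLE1 array 1 it was 1.76 (limma adjusted p = 3.8e-07). After IPPK siRNA RANBP2 was at 207%, 227% and 244%, a ratio of 2.26 ± 0.186 (SD, n = 3, limma adjusted p = 0.0138). After DBP5 siRNA it was at 168%, 156% and 159%, above every control array, yet did not pass the test (limma adjusted p = 0.120), in a fit whose spread includes the uneven GLE1 arrays. With only the 6 arrays compared it passed (limma adjusted p = 0.00104). By its dimmer probe, described below, RANBP2 went the other way in each knock-down. By the mean of its probes the rises after GLE1 and IPPK siRNA no longer passed. RANBP2 has near-identical gene copies, so which copy its probes measured is uncertain.

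**Figure D2:**
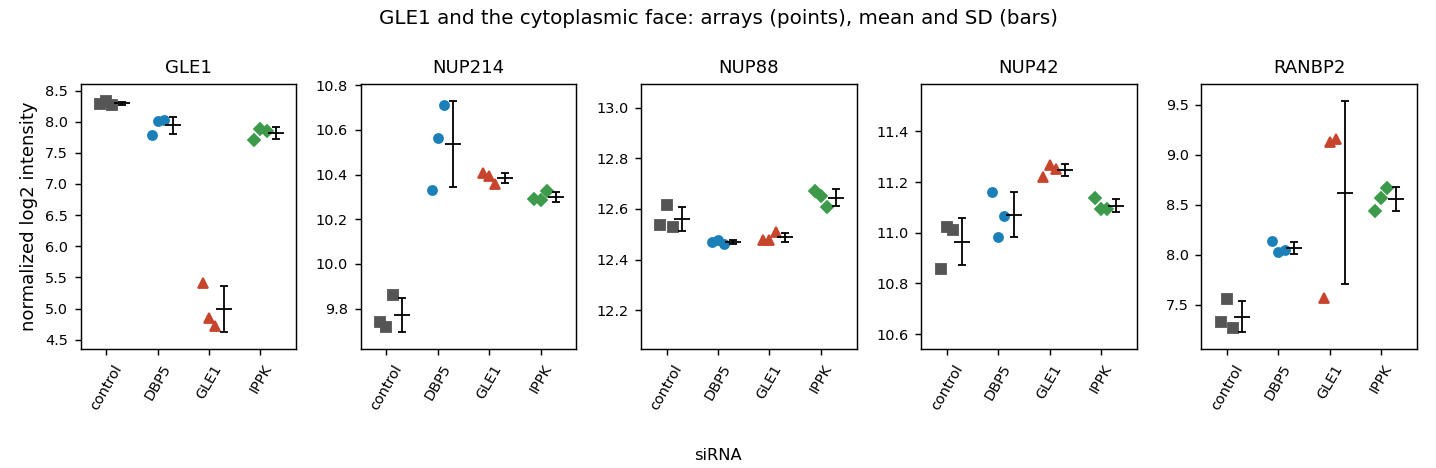
Normalized log2 intensity (vertical axes, a scale per gene) of GLE1 and the 4 cytoplasmic face genes on each array, by siRNA (horizontal axes), with a bar at the mean and SD of the 3 arrays. NUP214 is above control after every knock-down, NUP88 differs little, and RANBP2 shows GLE1 array 1 apart from the other GLE1 arrays.

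The Y complex, the outer scaffold of the pore, held genes that fell and genes that rose, as all genes tested did. Of its 9 genes, 4 fell and 4 rose after DBP5 siRNA, 3 fell and 5 rose after GLE1 siRNA, and 5 rose with none falling after IPPK siRNA. Of all genes, 27.5% fell and 26.7% rose after DBP5 siRNA, 31.5% and 30.6% after GLE1 siRNA and 28.0% and 27.3% after IPPK siRNA. The median log2 difference was 0.12, 0.38 and 0.36. NUP107, NUP85 and NUP37, all core scaffold proteins, fell after both DBP5 and GLE1 siRNA and did not pass the test after IPPK siRNA. NUP85 stood at 52.8%, 49.3% and 48.3% after GLE1 siRNA, with control arrays between 99.5% and 100.3%, a ratio of 0.501 ± 0.0238 (SD, n = 3, limma adjusted p = 1.2e-07). After DBP5 siRNA NUP85 was at 76.2%, 73.2% and 83.9% (limma adjusted p = 3.4e-04), and after IPPK siRNA at 96.1%, 93.2% and 92.4% (limma adjusted p = 0.214). All arrays of both DBP5 and GLE1 siRNA lay below the control arrays, and the GLE1 arrays lay below the DBP5 arrays. NUP107 was at 55.3% to 59.0% after GLE1 siRNA and 71.8% to 87.1% after DBP5 siRNA. NUP37 was at 51.1% to 56.0% and 74.1% to 83.8% in the same order.

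Other Y complex genes rose. SEC13, which also builds the COPII coat of secretory vesicles, was at 230.0%, 253% and 239% after DBP5 siRNA, 237%, 255% and 229.8% after GLE1 siRNA and 232%, 218% and 229% after IPPK siRNA. Its ratios of 2.41 ± 0.115, 2.40 ± 0.128 and 2.26 ± 0.0717 (SD, n = 3 each) passed the test each time (limma adjusted p = 4.0e-08, 1.7e-08 and 4.9e-08), and no difference between knock-downs passed for this probe. AHCTF1, also called ELYS, brings the Y complex to chromatin when pores form after mitosis. It was at 216%, 260.1% and 255% after GLE1 siRNA, 200.0%, 225% and 226% after IPPK siRNA and 134%, 147% and 139% after DBP5 siRNA, and rose each time (ratios 2.43 ± 0.238, 2.17 ± 0.146 and 1.40 ± 0.0629, SD, n = 3 each, limma adjusted p = 1.8e-07, 8.0e-07 and 3.8e-04). The DBP5 arrays lay below all arrays of the other knock-downs. By the dimmer AHCTF1 probe, described below, the direction after GLE1 siRNA turned and no knock-down passed. NUP160 rose by a ratio of 1.35, 1.30 and 1.45 after DBP5, GLE1 and IPPK siRNA. NUP133 rose after DBP5 siRNA (1.22) and IPPK siRNA (1.28) but had a ratio of 0.978 after GLE1 siRNA (limma adjusted p = 0.674). SEH1L, which also serves the GATOR2 complex of nutrient sensing, rose after GLE1 siRNA (1.49) and IPPK siRNA (1.30). NUP43 went in opposite directions, with a fall to a ratio of 0.832 ± 0.0814 after DBP5 siRNA and a rise to 1.55 ± 0.0363 after GLE1 siRNA (SD, n = 3 each, limma adjusted p = 0.0241 and 8.2e-05). The fall of NUP43 was lost without control array 1, control array 2 or DBP5 array 3 (limma adjusted p = 0.0720, 0.0872 and 0.0901). With the slide as a block, SEH1L after DBP5 siRNA (0.12 on the log2 scale, limma adjusted p = 0.0362) and NUP43 after IPPK siRNA (0.20, limma adjusted p = 0.0479) also passed.

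**Figure D3:**
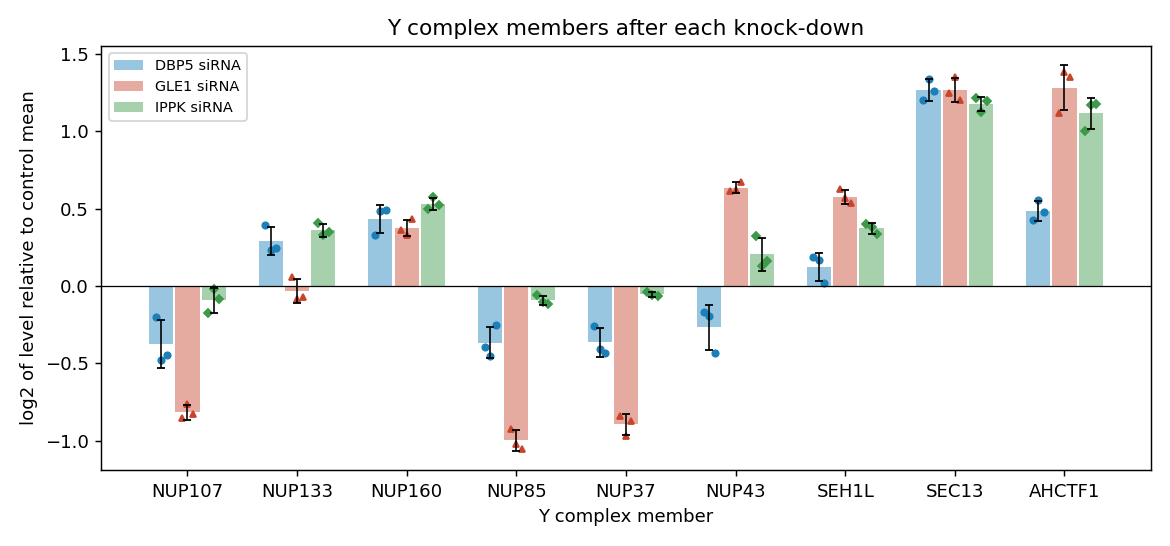
Log2 of the level of the 9 Y complex genes relative to the control mean (vertical axis) after DBP5, GLE1 and IPPK siRNA, as bars at the mean with SD and a point per array. NUP107, NUP85 and NUP37 lie below 0 after DBP5 siRNA and further below after GLE1 siRNA, NUP43 lies below 0 after DBP5 siRNA and above it after GLE1 siRNA, and SEC13 lies above 1 after each.

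Of the 5 inner ring genes, 3 fell after DBP5 siRNA, 2 fell and 1 rose after GLE1 siRNA, and 2 fell and 1 rose after IPPK siRNA. Of all genes, 27.5%, 31.5% and 28.0% fell and 26.7%, 30.6% and 27.3% rose, so the counts after GLE1 and IPPK siRNA were near the background. The group had medians of -0.30, -0.16 and -0.21 on the log2 scale. NUP155, a scaffold protein that touches the membrane, was at 51.9%, 46.4% and 50.3% after GLE1 siRNA and 73.7%, 77.1% and 72.7% after DBP5 siRNA, against 95.7% to 105% on the control arrays. The falls to ratios of 0.495 ± 0.0280 and 0.745 ± 0.0232 (SD, n = 3 each) passed the test (limma adjusted p = 1.1e-07 and 1.2e-04). After IPPK siRNA NUP155 was at 103%, 99.7% and 95.5%, which overlapped the control arrays. NUP93, which holds the channel nucleoporins in the ring, fell in all knock-downs to ratios of 0.812, 0.653 and 0.857, and the last of these, after IPPK siRNA, was lost without any of 4 single arrays, with limma adjusted p of 0.0506 to 0.102. NUP35, a ring protein that binds membranes, was at 67.8%, 73.2% and 75.9% after DBP5 siRNA and 70.0%, 81.4% and 79.6% after IPPK siRNA, below control arrays at 90.5%, 116% and 95.4%. Both falls passed (limma adjusted p = 0.00459 and 0.0143), the second not without control array 2 or IPPK array 1 (limma adjusted p = 0.0541 and 0.0549). After GLE1 siRNA NUP35 was at 79.7%, 100.5% and 89.4% and did not pass. The large ring proteins NUP205 and NUP188 kept ratios of 1.04 to 1.10 and 0.866 to 1.07. NUP205 rose after GLE1 siRNA (1.08) and IPPK siRNA (1.10), the first not without control array 1 or 3 or GLE1 array 2 or 3, with limma adjusted p of 0.0614 to 0.0877, and the second not without control array 1 (limma adjusted p = 0.0530).

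Among the channel nucleoporins, NUP58 rose while its partners NUP62 and NUP54 did not. NUP58 was at 204%, 216% and 214% after DBP5 siRNA, 232%, 268% and 263% after GLE1 siRNA and 350.2%, 395% and 389% after IPPK siRNA, against 96.6% to 102% on the control arrays. The groups did not overlap, and each ratio passed the test (2.11 ± 0.0650, 2.54 ± 0.199 and 3.78 ± 0.243, SD, n = 3 each, limma adjusted p = 4.6e-07, 4.7e-08 and 8.0e-09). NUP58 after IPPK siRNA was higher than after DBP5 siRNA (DBP5 minus IPPK -0.84 on the log2 scale, limma adjusted p = 4.1e-06) and higher than after GLE1 siRNA (GLE1 minus IPPK -0.57, limma adjusted p = 3.7e-05). NUP62, which forms the channel subcomplex with NUP58 and NUP54, fell in all knock-downs. It was at 91.7%, 82.5% and 81.1% after DBP5 siRNA, 79.5%, 70.2% and 68.2% after GLE1 siRNA and 80.4%, 70.2% and 67.1% after IPPK siRNA (limma adjusted p = 0.0395, 7.2e-04 and 8.6e-04). The fall after DBP5 siRNA was lost without any of 5 single arrays, with limma adjusted p of 0.0519 to 0.120. NUP54 fell after GLE1 siRNA to 75.8%, 76.2% and 72.2% (limma adjusted p = 7.8e-05) and had ratios of 1.01 and 1.06 after DBP5 and IPPK siRNA. Over the 3 channel genes the median log2 difference was 0.01 after DBP5 siRNA, -0.42 after GLE1 siRNA and 0.09 after IPPK siRNA.

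NDC1, the transmembrane nucleoporin conserved from yeast to human, had the highest ratio of the members in each knock-down, except that without GLE1 array 1 RANBP2 lay above it after GLE1 siRNA. Its level was 388%, 342% and 372% after DBP5 siRNA, 252%, 271% and 294% after GLE1 siRNA and 398%, 418% and 418% after IPPK siRNA, against 95.0% to 106.9% on the control arrays. Every knock-down array lay above every control array, and every GLE1 array lay below the DBP5 and IPPK arrays. The ratios were 3.67 ± 0.233, 2.72 ± 0.208 and 4.11 ± 0.117 (SD, n = 3 each, limma adjusted p = 1.7e-08, 4.1e-08 and 7.6e-09). NDC1 after GLE1 siRNA was lower than after DBP5 siRNA (log2 difference -0.43, limma adjusted p = 5.0e-04) and than after IPPK siRNA (-0.60, limma adjusted p = 4.0e-05). NUP210, a membrane glycoprotein, was at 58.3%, 67.5% and 71.0% after DBP5 siRNA, 52.7%, 78.1% and 65.1% after GLE1 siRNA and 89.8%, 59.7% and 64.6% after IPPK siRNA, where control arrays were at 87.8%, 96.8% and 118%. The falls passed the test (limma adjusted p = 0.0164, 0.0119 and 0.0374), although IPPK array 1 overlapped the control arrays. In control cells NUP210 was the dimmest member, with a mean normalized log2 intensity of 5.68. It was at 5.06, 5.04 and 5.17 after DBP5, GLE1 and IPPK siRNA, so its ratios rest on weak signals. The call after DBP5 siRNA was lost without control array 3 or DBP5 array 1 (limma adjusted p = 0.0660 and 0.0600), and that after IPPK siRNA without any of 4 single arrays, with limma adjusted p of 0.0671 to 0.134. POM121, the membrane protein that starts pore assembly in interphase, had ratios of 1.07, 1.17 and 0.942 and passed the test in no knock-down, and it was called higher after GLE1 siRNA with the slide as a block (limma adjusted p = 0.0431) or without control array 3 (limma adjusted p = 0.0359). In the transmembrane group 1 of 3 genes rose and 1 fell each time, near the shares of all genes, 26.7% to 30.6% higher and 27.5% to 31.5% lower, and the medians were 0.09, 0.23 and -0.09.

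Of the 3 basket nucleoporins, 2 fell and 1 rose after DBP5 siRNA, 2 fell after GLE1 siRNA, and 1 fell and 1 rose after IPPK siRNA, where 27.5%, 31.5% and 28.0% of all genes fell and 26.7%, 30.6% and 27.3% rose. NUP153, which anchors the basket and binds mRNA and import receptors, was at 67.2%, 71.6% and 72.4% after DBP5 siRNA, 74.99%, 79.9% and 79.5% after GLE1 siRNA and 84.2%, 90.3% and 87.0% after IPPK siRNA. The control arrays were at 98.8% to 101%, and no knock-down array reached them. All of these falls passed (ratios 0.704 ± 0.0282, 0.781 ± 0.0271 and 0.871 ± 0.0309, SD, n = 3 each, limma adjusted p = 9.9e-06, 9.6e-05 and 0.00605). NUP50, a cofactor of importin release, fell after DBP5 siRNA to a ratio of 0.756 and after GLE1 siRNA to 0.872, the latter not without control array 2 (limma adjusted p = 0.103) or GLE1 array 2 or 3 (limma adjusted p = 0.0757 and 0.0926). Its ratio after IPPK siRNA was 0.929. TPR, the long coiled-coil protein of the basket filaments, rose after DBP5 siRNA, at 138%, 116% and 156%, and after IPPK siRNA, at 136%, 129% and 127% (limma adjusted p = 0.00169 and 0.00376). After GLE1 siRNA TPR was at 92.2%, 90.4% and 87.6%, below the control arrays, but did not pass (limma adjusted p = 0.170) except when only those 6 arrays were fitted (limma adjusted p = 0.0281). Group medians were -0.40, -0.20 and -0.11.

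The remaining members are NUP98, RAE1 and AAAS. NUP98, a mobile nucleoporin that binds RAE1 and export complexes, was at 162%, 173% and 168% after IPPK siRNA (ratio 1.67 ± 0.0540, SD, n = 3, limma adjusted p = 9.2e-07). It also rose after DBP5 siRNA (ratio 1.19, limma adjusted p = 0.00251), and after GLE1 siRNA its ratio was 1.04. By the dimmer NUP98 probe, described below, the differences after IPPK and DBP5 siRNA turned direction. RAE1, the mRNA export partner of NUP98, had ratios of 0.981, 0.960 and 0.957, none of which passed. AAAS, or ALADIN, the protein altered in triple A syndrome and held at the pore by NDC1, fell after GLE1 siRNA to 52.2%, 51.3% and 50.3% (ratio 0.513 ± 0.00979, SD, n = 3, limma adjusted p = 9.0e-06). Control arrays for AAAS were at 91.1% to 116%. Its levels of 81.3% to 100.5% after DBP5 siRNA and 104% to 109% after IPPK siRNA did not pass the test.

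The GLE1 knock-down was compared directly with the other knock-downs, which shows where its effect on pore genes differed. These comparisons share the GLE1 arrays, and in both the members counted as lower include GLE1, the siRNA target. Against DBP5 siRNA 13 of 31 members were lower and 8 higher after GLE1 siRNA, or 41.9% and 25.8%, where 28.0% and 26.5% of all genes were. Against IPPK siRNA 16 were lower and 4 higher, or 51.6% and 12.9%, where 30.7% and 29.4% of all genes were. When 1 array was left out in turn, 4 to 8 members were higher against DBP5 siRNA and 2 to 5 against IPPK siRNA. The member medians were -0.03 and -0.16 on the log2 scale, against 0.03 and 0.02 for all genes. AAAS (-0.85 against DBP5 siRNA and -1.06 against IPPK siRNA), NUP155 (-0.59 and -1.01), NUP85 (-0.63 and -0.91), NUP37 (-0.53 and -0.84) and NUP107 (-0.44 and -0.72) were lower in both, with limma adjusted p from 1.6e-07 to 5.9e-04. TPR (-0.59 and -0.54), NUP54 (-0.43 and -0.51), NUP133 (-0.32 and -0.39) and NUP93 (-0.31 and -0.39) were lower too. Higher after GLE1 siRNA than after either were NUP43 (0.90 and 0.43) and SEH1L (0.45 and 0.20). SEH1L against IPPK siRNA turned to -0.28 by its dimmer probe and -0.04 by the mean of its probes. The others higher than after DBP5 siRNA alone were NUP58, NUP35, NUP50, NUP42 and NUP153 (0.27, 0.31, 0.21, 0.18 and 0.15), and those higher than after IPPK siRNA alone were POM121 and NUP188 (0.31 and 0.30). Of these, NUP35, NUP50, NUP42, NUP153, POM121 and NUP188 each lost the call in at least 2 of the fits without a single array. NUP42 against DBP5 siRNA turned direction by its dimmer probe and, at -0.12, by the mean of its probes. POM121 against IPPK siRNA also turned direction by its dimmer probe. AHCTF1 was higher than after DBP5 siRNA (0.80, limma adjusted p = 1.0e-05), and its difference from IPPK siRNA of 0.17 did not pass (limma adjusted p = 0.0936) except with the slide as a block (limma adjusted p = 0.0252) or without GLE1 array 1 (limma adjusted p = 0.0116). By the dimmer AHCTF1 probe these differences turned to -0.46 and -0.70. The block also called NUP35 higher than after IPPK siRNA (0.22, limma adjusted p = 0.0177). By the brighter probes no cytoplasmic face gene was lower after GLE1 siRNA than after DBP5 siRNA, and against IPPK siRNA only NUP88 was (-0.16, limma adjusted p = 0.00897), a call lost with normexp background correction or with the authors' values (limma adjusted p = 0.112 and 0.247). By its dimmer probe NUP42 was lower in both (-0.42 and -1.10). RANBP2 did not pass in either comparison, and without GLE1 array 1 it was higher after GLE1 siRNA in both (1.07 and 0.59, limma adjusted p = 1.4e-05 and 6.0e-04).

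**Figure D4:**
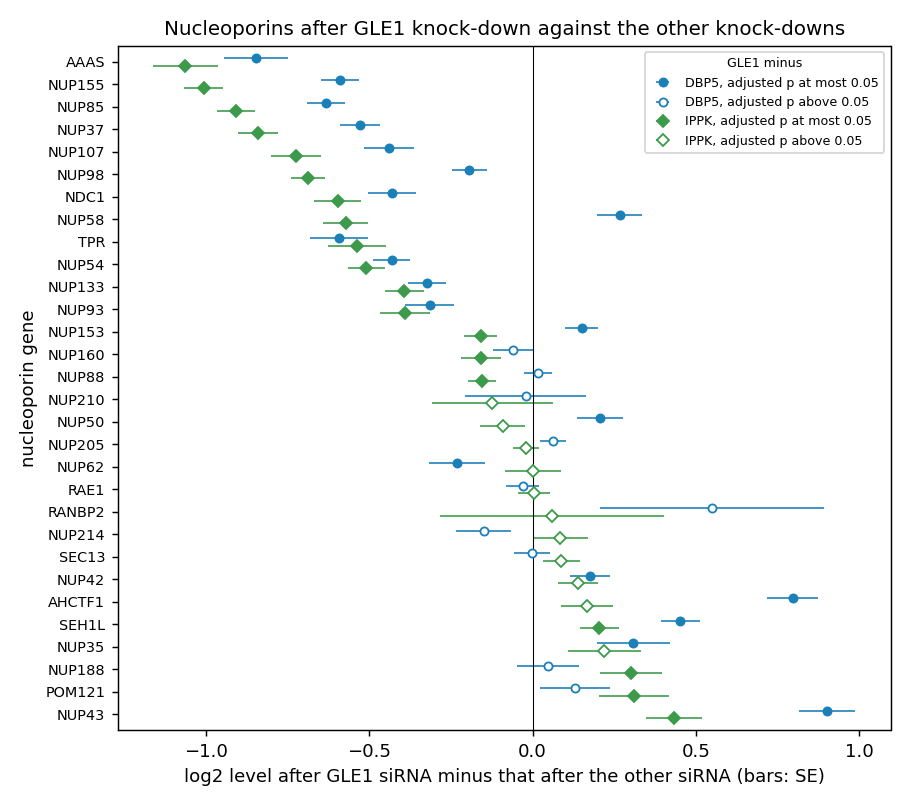
Log2 level after GLE1 siRNA minus that after DBP5 siRNA (circles) or IPPK siRNA (diamonds) for the 30 nucleoporins, with bars for the SE; filled symbols have a limma adjusted p of at most 0.05. AAAS, NUP155, NUP85, NUP37 and NUP107 lie left of 0 against both knock-downs, and NUP43 and SEH1L lie right of 0 against both.

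DBP5 and IPPK siRNA were set against each other in the same way. After DBP5 siRNA 12 members were lower than after IPPK siRNA and 3 were higher, or 38.7% and 9.68%, where 25.1% and 23.8% of all genes were. NUP58 (-0.84), AHCTF1 (-0.63), NUP98 (-0.49), NUP43 (-0.47) and NUP155 (-0.42) were among those lower, with limma adjusted p from 4.1e-06 to 0.00114. NUP98 turned to 0.30 by its dimmer probe. The 3 higher were NUP214 (0.23, limma adjusted p = 0.0412), NUP62 (0.23, limma adjusted p = 0.0454) and NUP188 (0.26, limma adjusted p = 0.0470). NUP188 overlapped between the groups and no longer passed with the slide as a block (limma adjusted p = 0.0636). Leaving out 1 array of these knock-downs left 0 to 2 members higher.

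For 12 members both probes were kept, and the probes of a gene did not always respond alike. The difference between the probes was itself tested, the dimmer minus the brighter probe in each comparison. It passed for 3 of 12 members after DBP5 siRNA, 8 after GLE1 siRNA and 6 after IPPK siRNA, where 31.4%, 37.2% and 32.7% of the 4191 genes with such a pair passed. NUP42 rose by both probes after GLE1 siRNA, but its dimmer probe gave ratios of 1.97 ± 0.0598, 1.47 ± 0.0479 and 3.16 ± 0.0326 (SD, n = 3 each) where the brighter probe gave 1.08, 1.22 and 1.10. The pair differed each time (limma adjusted p = 1.2e-06, 0.00289 and 2.7e-08). RANBP2 differed in direction, with ratios of 0.821, 0.790 and 0.816 from the dimmer probe, none of which passed, beside 1.61, 2.35 and 2.26 from the brighter. The pair differed after GLE1 siRNA and IPPK siRNA (limma adjusted p = 0.00413 and 0.00769). When the mean of both probes stood for the gene, RANBP2 no longer passed after GLE1 siRNA (0.45, limma adjusted p = 0.0803) or IPPK siRNA (0.44, limma adjusted p = 0.0914).

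Among Y complex genes, the dimmer AHCTF1 probe gave ratios of 1.13, 0.821 and 1.34, none of which passed the test. The AHCTF1 pair differed after GLE1 and IPPK siRNA (limma adjusted p = 4.2e-05 and 0.0117), and its difference after DBP5 siRNA did not pass (limma adjusted p = 0.252). For SEH1L the dimmer probe, assigned to another transcript, fell after DBP5 siRNA (0.716) and GLE1 siRNA (0.837) while the brighter rose after GLE1 siRNA. NUP133 fell after GLE1 siRNA by its dimmer probe (0.596, limma adjusted p = 7.6e-04), and by the mean of its probes its rise after DBP5 siRNA no longer passed (0.06 on the log2 scale, limma adjusted p = 0.505). NUP43 rose after GLE1 siRNA by both probes (1.55 and 1.23), and SEC13 rose in every knock-down by both, with ratios of 2.64, 2.66 and 2.17 from the dimmer probe. The SEC13 pair passed the test of a difference in no knock-down, although by the dimmer probe SEC13 was higher after DBP5 and GLE1 siRNA than after IPPK siRNA (limma adjusted p = 0.0399 and 0.0267).

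Elsewhere in the pore, NUP98 gave opposite directions after IPPK siRNA, 1.67 from the probe for NM_005387 and 0.767 ± 0.0589 (SD, n = 3) from that for NM_016320 (limma adjusted p of the difference 5.5e-06). Its rise after DBP5 siRNA did not pass by the mean of the probes (0.08 on the log2 scale, limma adjusted p = 0.288). NUP50 fell after IPPK siRNA by its dimmer probe (0.699) and had a ratio of 1.01 by it after GLE1 siRNA. NUP62 and NUP35 gave like values by both probes, with NUP62 falling in all 3 knock-downs by its dimmer probe to 0.815, 0.780 and 0.703, and NUP35 to 0.723, 0.843 and 0.775. NDC1, NUP58, NUP155, NUP85, NUP107, NUP37 and AAAS rest on a single probe each. The dimmer POM121 probe was well above background on 9 arrays and passed the test in no knock-down against control, and the dimmer TPR probe did not pass the filter on dim probes. When the mean of all probes stood for TPR, its rise no longer passed after DBP5 siRNA (0.36, limma adjusted p = 0.0510) or IPPK siRNA (0.25, limma adjusted p = 0.157). POM121 also has near-identical copies in the genome, so which copy was measured is uncertain.

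**Figure D5:**
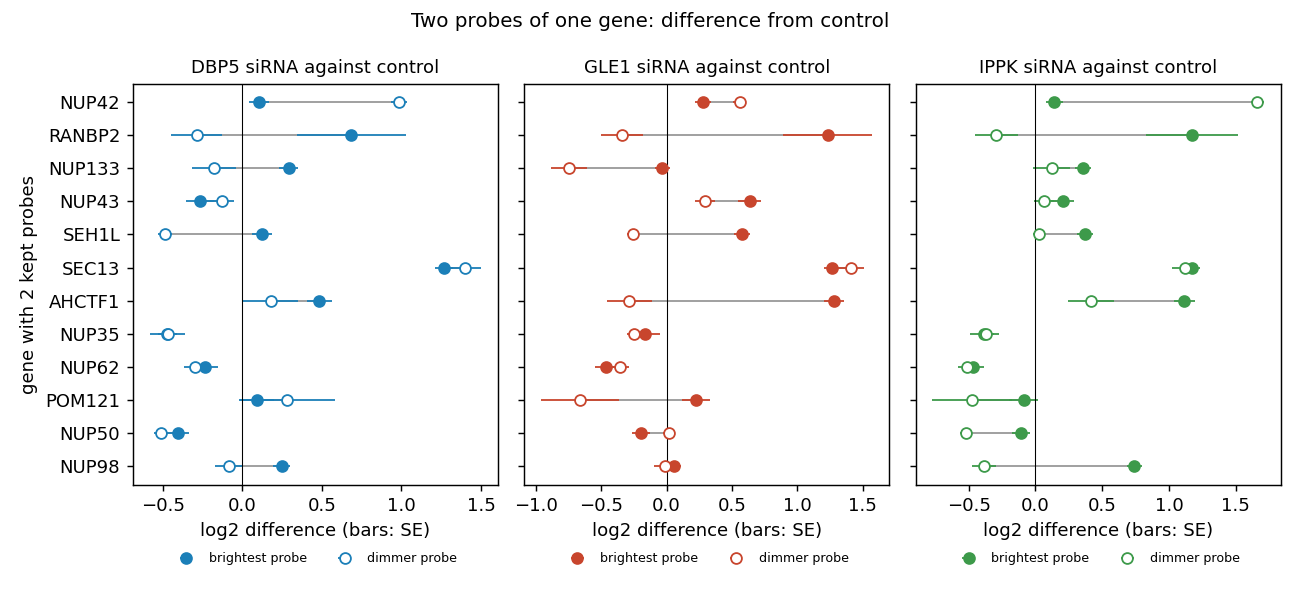
Log2 difference from control of the brighter (filled) and dimmer (open) probe of the 12 members with 2 kept probes, after DBP5, GLE1 and IPPK siRNA, with bars for the SE. The probes of SEC13, NUP35 and NUP62 lie close together, whereas those of RANBP2, and after GLE1 siRNA those of AHCTF1 and SEH1L, lie on opposite sides of 0.

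Cargo passes the pore with the Ran cycle and the transport receptors, a list of 30 genes taken for comparison. After DBP5 siRNA 8 fell and 11 rose, after GLE1 siRNA 12 fell and 12 rose, and after IPPK siRNA 12 fell and 11 rose. Of all genes, 27.5% fell and 26.7% rose, 31.5% and 30.6%, and 28.0% and 27.3% in the same order. The list had medians of 0.00, -0.03 and -0.05 on the log2 scale. After GLE1 siRNA the exportin XPO1 was at 49.0%, 49.1% and 48.9% of the control mean, and TNPO3, an importer of splicing factors, at 32.2%, 30.4% and 30.04%. Both fell (limma adjusted p = 1.8e-08 and 6.2e-08), as did RANBP1, a Ran-binding cofactor, to a ratio of 0.502. The importin alpha genes KPNA3 and KPNA1 rose to ratios of 2.35 and 2.08, and the export cofactor RANBP3 to 1.60.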

How the data were processed

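Cytoplasmic RNA of U2OS cells was hybridised to 12 one-colour Agilent arrays, 3 each for control, DBP5, GLE1 and IPPK siRNA, grouped by their labels. The authors scanned the arrays and extracted spot intensities with Feature Extraction 10.7.3.1 (submitters' processing notes), and the deposited intensity files hold background-subtracted processed signals. A series table from the authors holds log2 values of the same arrays and served as an alternative. There the median of each column was 7.75 to 7.76, and the values correlated at 0.9998 or more with the log2 median spot signal of the same array. The methods state LOESS normalization in R for the array data, without its settings.

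Control spots and outlier spots were dropped, spots of a probe were averaged, and log2 processed signals were normalized between arrays by cyclic loess (limma 3.58.1, R 4.3.3). Sequences and figures were handled in Python 3.11.15. Probes were named through RefSeq, which matched 26449 of 34127 gene probes (77.5%), and other probes kept the name in the file. The brightest probe stood for a gene. Testing was limited to the 20821 genes whose probe exceeded background clearly in every replicate of 1 or more siRNAs. limma was fitted with a mean per group over the 12 arrays, and p-values were Benjamini-Hochberg adjusted within each of 6 comparisons at 0.05, over all genes tested. Values are levels relative to other genes on the array, and the number of arrays limits precision. The steps were tested on simulated data with independent noise on each array and few changed genes, so that test does not cover the slide structure described next.

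Same-numbered arrays shared a slide and deviated together: their deviations from group means correlated at 0.318 to 0.513 (18 pairs of arrays), against -0.285 to -0.0495 for the 36 other pairs. The fit with slide as a block was therefore a paired alternative. The other alternatives were another normalization, normexp with an offset of 50 on the median spot signal, no filter on dim probes or one requiring signal on all 12 arrays, the probe mean or the dimmer probe, the 6 arrays of a comparison alone, a t-test paired by slide, and leaving out each array. The methods name t-tests in general and rank products for the arrays, which were not run here. The test of the difference between probes of a gene was added after the data had been seen.

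The members and lists were chosen with earlier results of these data known. All 31 members are named. Values per array were to be given for GLE1, the cytoplasmic face and, in each knock-down, the 3 members that fell most and the 3 that rose most, among those that passed the test with arrays not overlapping the control arrays, and are also given for others described in detail, which were chosen after their values were seen. Of the 30 transport genes, those named are the 3 that fell most and the 3 that rose most after GLE1 siRNA. Protein sequences are not used here.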

Additional observations from a re-analysis of the deposited data

How the results depend on the processing

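Levels are relative to other genes on the array, so a change of all RNA is not measured, and 3 arrays a group limit what can be called. Members with 2 probes depended on the probe: among differences that passed the test as reported or under the alternative, 21 changed direction by the dimmer probe and 6 by the mean of the probes, and none under the other alternatives run. Sign changes where neither value passed are not counted there, such as RANBP2 after DBP5 siRNA (-0.28 by the dimmer probe) and POM121 after GLE1 siRNA (-0.66). By the dimmer probe AHCTF1 was at -0.28 after GLE1 siRNA and at -0.46 and -0.70 for GLE1 against DBP5 and IPPK siRNA, the last being -0.27 by the mean. NUP133 was at -0.17 after DBP5 siRNA. NUP42 was at -0.42 and -1.10 for GLE1 against DBP5 and IPPK siRNA, or -0.12 and -0.48 by the mean. NUP50 was at 0.02 after GLE1 siRNA, 0.01 for DBP5 against IPPK siRNA and 0.53 for GLE1 against IPPK siRNA (0.22 by the mean). NUP98 was at -0.08 and -0.38 after DBP5 and IPPK siRNA, 0.07 and 0.37 for GLE1 against DBP5 and IPPK siRNA, and 0.30 for DBP5 against IPPK siRNA. POM121 was at -0.94 and -0.19 for GLE1 against DBP5 and IPPK siRNA. RANBP2 was at -0.34 and -0.29 after GLE1 and IPPK siRNA. SEH1L was at -0.48 and -0.26 after DBP5 and GLE1 siRNA and -0.28 for GLE1 against IPPK siRNA, or -0.18 and -0.04 by the mean for the first and the last. The cause was not tested.

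Of the counts of members, the 3 higher after DBP5 than IPPK siRNA moved most: 5 by the mean of the probes, 1 with scaling to the 75th percentile, quantile normalization or the authors' values, and 0 without a filter, with normexp, with the 6 arrays alone or with a t-test paired by slide. The 8 higher after GLE1 than DBP5 siRNA became 5 with the 6 arrays alone. By the paired t-test, after adjustment, that count was 3, the count higher after GLE1 than IPPK siRNA was 2, and the counts lower were 3 after DBP5 siRNA, 2 after IPPK siRNA, 6 for DBP5 against IPPK siRNA and 5 for GLE1 against DBP5 siRNA. Calls over all genes fell with this test too, for example from 5733 to 2603 lower after DBP5 siRNA and from 5526 to 2518 higher after GLE1 than DBP5 siRNA.

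Leaving out 1 array in turn gave 0 to 2 members higher after DBP5 than IPPK siRNA, 4 to 8 higher after GLE1 than DBP5 siRNA (4 without GLE1 array 2, 5 without DBP5 array 2 or GLE1 array 3), 2 to 5 higher after GLE1 than IPPK siRNA (2 without IPPK array 1), and 3 to 5 lower after IPPK siRNA than control (3 without control array 2 or IPPK array 1). The other counts stayed within 1.5 times their value.

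With the slide as a replicate block, 180 of 186 log2 differences kept their side of the threshold. The block added NUP43 after IPPK siRNA, POM121 after GLE1 siRNA, SEH1L after DBP5 siRNA, and AHCTF1 and NUP35 for GLE1 against IPPK siRNA, which brought that count from 4 to 6, and it lost NUP188 for DBP5 against IPPK siRNA, from 3 to 2.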
